A study of Homo sapiens with 3 samples.

Results

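The 32 genes described here encode the enzymes of the tricarboxylic acid (TCA) cycle, the enzymes and carrier that bring pyruvate into it, and the mitochondrial carriers that exchange its acids with the cytosol. They were taken by name from a fixed list and matched by Entrez identifier to 32 of the 25702 genes in the deposited count tables. That list was chosen with earlier results of these data known. Molm13 is an established line of human acute myeloid leukemia cells in which the receptor gene FLT3 carries an internal tandem duplication. Cultures in serum-containing medium were exposed for 6 h to the solvent DMSO or to pyrvinium, an anthelmintic drug, at 50 nM or 100 nM. With 1 library per condition, every difference below is one between 2 libraries and has no replicate check.

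In the TCA cycle, acetyl-CoA is joined to oxaloacetate to give citrate, and the carbon is then oxidized step by step while NADH and succinate pass electrons to the respiratory chain. Pyruvate from glycolysis enters the mitochondrion through a carrier and is either oxidized to acetyl-CoA by the pyruvate dehydrogenase complex or carboxylated to oxaloacetate, which refills the cycle. Leukemia cells use the cycle both for energy and as a source of carbon for lipids, aspartate and other building blocks. Pyrvinium is known to enter mitochondria and to act on the respiratory chain, which draws on the NADH that the cycle makes.

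The deposited values are whole-number read counts per gene, with totals of 22677038 to 24075123 per library. Libraries were put on one scale with the TMM factors of edgeR. A gene was tested when any library gave it 10 or more counts, which held for 12879 genes and for 31 of the 32 genes of the module. Defining markers of the myeloid line (FLT3, CD33, SPI1, LYZ, MPO and PTPRC) were all counted in all 3 libraries, with a summed level of 459 to 485 counts per kilobase of gene length per 1000000 scaled counts. Summed markers of B cells, T cells, erythroid cells, and fibroblasts or epithelium each reached at most 1.58 on the same scale. Other scalings of the library sizes moved log2 fold changes by at most 0.0032.

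The module as a whole stayed near its DMSO level, and 3 genes passed the thresholds given below at 100 nM. PC, which carboxylates pyruvate to oxaloacetate, and SUCLG2, the subunit of the GTP-forming succinyl-CoA ligase, rose at 100 nM, and SLC25A12, an aspartate/glutamate carrier, fell. A gene was called when its scaled count was at least 25% higher, or at least 20% lower, and its p from a two-sided exact binomial test, adjusted by Benjamini-Hochberg over all genes tested, did not exceed 0.05. This test compares the libraries and not the conditions. At 100 nM against DMSO, 2 of the 31 genes were called higher, beside 10.2% of all genes tested, and 1 of the 31 was called lower, beside 8.3% of all genes tested. None of the 31 reached 2-fold, the threshold in the study's methods, which 2.19% of all genes tested passed with the same adjusted p. With 31 genes, these counts are near what the shares over all genes tested would give, so they set the module apart in neither direction.

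The calls rest on counting error alone. When edgeR's exact test was given a biological coefficient of variation of 0.1, which was assumed and not measured, 0 of the 31 genes were called at 100 nM, beside 1.93% of all genes tested, and 0 at 50 nM, beside 0.248%. At a fold threshold of 1.5 the number was also 0 at both doses, beside 6.74% of all genes tested at 100 nM and 2.58% at 50 nM. Such shares would give few or no calls among 31 genes.

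The sequence before the start of PC and of SLC25A12 is shown because these genes had the largest called changes of the module, in opposite directions. Both come from the RefSeq promoter table and were matched to the minus strand of GRCh37, the build of the counts. Only bases outside the gene as listed in the count tables are printed, 5′ to 3′. The stretch of SLC25A12 covers 191 bases at chr2:172750814-172751004, with 75.4% G and C and 30 CpG dinucleotides. The stretch of PC covers 250 bases at chr11:66725855-66726104, with 67.6% G and C and 21 CpG dinucleotides, before the outermost of 3 start sites that the table lists.
SLC25A12: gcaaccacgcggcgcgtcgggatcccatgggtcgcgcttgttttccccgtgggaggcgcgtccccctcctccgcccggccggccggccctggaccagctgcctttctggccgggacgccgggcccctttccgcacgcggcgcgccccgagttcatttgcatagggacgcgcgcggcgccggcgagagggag
PC: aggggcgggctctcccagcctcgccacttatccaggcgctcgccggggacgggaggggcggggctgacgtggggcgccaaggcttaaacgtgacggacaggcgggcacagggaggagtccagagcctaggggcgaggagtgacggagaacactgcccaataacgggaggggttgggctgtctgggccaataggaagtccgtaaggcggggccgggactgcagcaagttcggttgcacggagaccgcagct

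Neither stretch has capitals, since no searched motif was found in them. The motifs were the letters TGATGNAAT, of the type bound by ATF4 with its partners, and GCGCATGCG, of the type bound by NRF1, on both strands. In the RefSeq promoter table, 30 of the 32 genes had an entry, and 0 of the 30 held either string in the window from 250 bases before to 50 bases after the start. Among all promoters in the table, 0.991% held the first string and 1.92% the second. The promoters of the module had a median of 67.4% G and C in the 250 bases before the start, against 58% over all promoters.

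Levels within the module spanned a wide range (the plot of levels). On the per-length scale, counts per kilobase per 1000000 scaled counts, MDH1, the cytosolic malate dehydrogenase, had the highest level, which was 239 with DMSO, 251 with 50 nM pyrvinium and 247 with 100 nM. Its mitochondrial counterpart MDH2 had levels of 143, 161 and 158 in the same order. PDK3, a kinase that switches pyruvate dehydrogenase off, had the lowest level of the 31 genes, at 0.799, 0.712 and 0.701. ME3, a mitochondrial NADP-dependent malic enzyme, was at 0 counts in the DMSO library, 1 count at 50 nM and 0 counts at 100 nM, and did not pass the filter. A count of 0 allows up to 3 counts, which is a level of 0.0503 for ME3 in the DMSO library and 0.0483 in the 100 nM library. ME2, the NAD-dependent mitochondrial malic enzyme, was at 56.0 in the DMSO library, far above the limit for ME3.

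**Figure D1:**
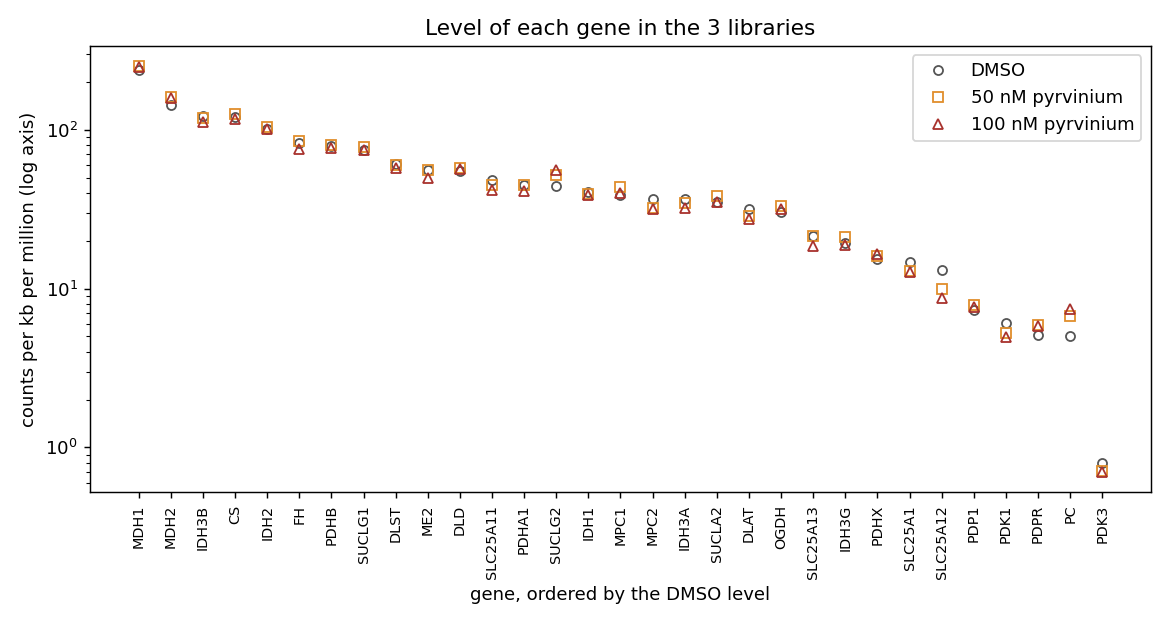
Level of each of the 31 genes that passed the filter (counts per kilobase of gene length per 1000000 scaled counts, log axis), ordered by the DMSO level, with 1 point per library. The 3 libraries lie close together for nearly every gene, from MDH1 at 239 with DMSO down to PDK3 below 1, and separate visibly for SLC25A12, PC and SUCLG2.

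At the entry of pyruvate, MPC1 and MPC2 form the carrier of the inner membrane. MPC1 had 871 counts with DMSO, 954 at 50 nM and 933 at 100 nM, and a log2 fold change of 0.16 at 50 nM (95% exact counting interval 0.03 to 0.29) and 0.04 at 100 nM (-0.09 to 0.18). MPC2 had 880, 756 and 796 counts, with log2 fold changes of -0.19 (-0.33 to -0.05) and -0.20 (-0.34 to -0.06). At 50 nM the intervals of the partners lay on opposite sides of 0, and neither gene was called. Exons of MPC2 overlap those of DCAF6 on the other strand over 6.74% of its length, and the strand setting of the counting is not given in the sources used here.

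The pyruvate dehydrogenase complex joins an E1 decarboxylase (PDHA1 and PDHB), an E2 acetyltransferase (DLAT), the E3-binding protein (PDHX) and the E3 dehydrogenase (DLD). Their per-length levels in the DMSO library were 78.9 for PDHB, 55.1 for DLD, 44.9 for PDHA1, 31.5 for DLAT and 15.4 for PDHX. DLAT had 3168 counts with DMSO, 2836 at 50 nM and 2856 at 100 nM, with log2 fold changes of -0.13 (-0.20 to -0.06) and -0.21 (-0.28 to -0.14). PDHA1 had 3641, 3597 and 3458 counts, with 0.01 at 50 nM (-0.06 to 0.08) and -0.13 at 100 nM (-0.20 to -0.07). The intervals of the other 3 genes, PDHB, PDHX and DLD, included 0 at 100 nM, and none of the 5 genes was called at either dose. DLD, which also serves the oxoglutarate dehydrogenase complex, gave log2 values of 0.07 at the lower and 0.04 at the higher dose. Exons of PDHA1 overlap those of MAP3K15 on the other strand over 27.2% of its length, but MAP3K15 had at most 6 counts in any library. Those of DLAT overlap PIH1D2 on the other strand over 4.88% of its length, with 4, 11 and 13 counts for PIH1D2. Those of PDHX overlap APIP on the other strand over 5.52% of its length. APIP had 670 counts with DMSO, 654 at 50 nM and 733 at 100 nM, and its part in the counts of PDHX was not tested.

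The complex is switched off by kinases and on by a phosphatase. PDK1, the kinase known as a target of hypoxia signaling, had 640 counts with DMSO, 547 at 50 nM and 545 at 100 nM. The log2 fold changes of PDK1 were -0.20 (-0.36 to -0.03) and -0.29 (-0.46 to -0.12), so that its 100 nM value, 18.2% lower, was the nearest to the fold threshold among the genes not called. PDK3 was measured with 243, 212 and 222 counts, and its intervals included 0 at both doses. PDP1, the catalytic subunit of the phosphatase, had 781, 817 and 854 counts, with log2 fold changes of 0.09 and 0.07 whose intervals included 0. PDPR, its regulatory subunit, had 940, 1071 and 1124 counts and log2 fold changes of 0.22 (0.09 to 0.35) and 0.20 (0.07 to 0.33). The value of PDPR is uncertain, since 15.3% of the 75-base windows of its transcripts also occur in transcripts of other genes, among them its copy PDPR2P.

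The other fate of pyruvate is carboxylation. PC (Entrez 5091, hg19 chr11:66615997-66725847, minus strand) was counted 497 times with DMSO, 645 times with 50 nM and 763 times with 100 nM pyrvinium. The order of the libraries followed the dose, and the log2 fold changes were 0.40 (0.23 to 0.58) at 50 nM and 0.56 (0.39 to 0.73) at 100 nM. PC thus rose by 32.4% and by 47.3%, and was called at both doses. At 100 nM its value lay at percentile 91.8 of all genes tested. The per-length level of PC was low throughout, at 5.06 with DMSO and 7.46 at 100 nM, against 44.9 and 40.9 for PDHA1. ME2, which returns malate to pyruvate, had 5993 counts with DMSO, 5852 at 50 nM and 5573 at 100 nM, with log2 fold changes of -0.0054 and -0.16 (-0.22 to -0.11 at 100 nM).

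In the first steps of the cycle, citrate synthase and the isocitrate dehydrogenases differed little. CS had 8318 counts with DMSO, 8448 at 50 nM and 8385 at 100 nM, with log2 fold changes of 0.05 and -0.05. The NAD-dependent enzyme, made of IDH3A, IDH3B and IDH3G, is the rate-controlling isocitrate dehydrogenase of the cycle. IDH3A, its catalytic subunit, had 2254, 2098 and 2078 counts, and a log2 fold change of -0.18 at 100 nM (-0.26 to -0.09). IDH3B had 4575, 4407 and 4407 counts and a value of -0.11 at 100 nM (-0.17 to -0.05). IDH3G was at 772, 815 and 775 counts, with an interval that included 0 at both doses. Per length, IDH3B was the most abundant of the subunits, at 121 in the DMSO library against 36.6 for IDH3A and 19.5 for IDH3G.

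IDH1 in the cytosol and IDH2 in the mitochondrion make NADPH from the same substrate. IDH1 had 2201 counts with DMSO, 2074 at 50 nM and 2179 at 100 nM, and IDH2 had 4082, 4110 and 4218. Their log2 fold changes lay between -0.07 and 0.04, and all 4 intervals included 0. For IDH2 the interval at 100 nM ran from -0.07 to 0.05, so counting error alone allowed only small differences in either direction.

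The oxoglutarate dehydrogenase complex consumes oxoglutarate with OGDH as its E1 and DLST as its E2 component. OGDH had 3421 counts with DMSO, 3631 at 50 nM and 3677 at 100 nM, with log2 fold changes of 0.11 (0.05 to 0.18) and 0.05 (-0.02 to 0.11). DLST had 4023, 3882 and 3914 counts, with -0.02 and -0.10 (-0.16 to -0.03 at 100 nM).

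Succinyl-CoA ligase has a shared alpha subunit, SUCLG1, and one of a pair of beta subunits that set the nucleotide, SUCLG2 for GTP and SUCLA2 for ATP. SUCLG2 (Entrez 8801, hg19 chr3:67410884-67705038, minus strand) gave 2734 counts with DMSO, 3156 with 50 nM and 3601 with 100 nM. The log2 fold change of SUCLG2 was 0.24 at 50 nM (0.16 to 0.31), below the fold threshold, and 0.34 at 100 nM (0.27 to 0.41), just above it. At 100 nM the value of SUCLG2 lay at percentile 83.9 of all genes tested. SUCLA2 had 1761, 1867 and 1825 counts, with 0.11 (0.02 to 0.21) and -0.0073 (-0.10 to 0.09). SUCLG1 had 2528, 2565 and 2615 counts, and its intervals included 0 at both doses. At 100 nM the intervals of SUCLG2 did not overlap those of the other subunits. Of the 75-base windows in SUCLG2 transcripts, 8.63% also occur in the pseudogene SUCLG2P2, and the part of these reads in the result was not tested.

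Fumarase and the malate dehydrogenases close the cycle. FH had 3560 counts with DMSO, 3576 at 50 nM and 3421 at 100 nM, with log2 fold changes of 0.04 and -0.12 (-0.18 to -0.05 at 100 nM). MDH2 had 4322, 4770 and 4959 counts, with 0.17 (0.11 to 0.23) and 0.14 (0.08 to 0.20). MDH1 had 7025, 7228 and 7544 counts, with 0.07 and 0.04. None of the 3 genes was called at either dose.

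The intervals of all 4 mitochondrial carriers lay below 0 at 100 nM, as did those of CS and FH, which each stand alone at their step. Such intervals were common, at 25.5% of all genes tested and 30.9% of those with a mean count of 100 or more. The interval of CS only just excluded 0, with an upper end of -0.0033. SLC25A12 (Entrez 8604, hg19 chr2:172639915-172750813, minus strand), which exports aspartate from mitochondria in the malate-aspartate shuttle, gave 1203 counts with DMSO, 900 with 50 nM and 837 with 100 nM. The log2 fold change of SLC25A12 was -0.39 at 50 nM (-0.52 to -0.26) and -0.58 at 100 nM (-0.71 to -0.45), and it was called lower at both doses. That value was the lowest of the module and lay at percentile 4.32 of all genes tested.

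SLC25A13, the other aspartate/glutamate carrier, had 1576 counts with DMSO, 1554 at 50 nM and 1429 at 100 nM, with log2 fold changes of 0.0087 (-0.09 to 0.11) and -0.20 (-0.30 to -0.10). SLC25A11, the oxoglutarate/malate carrier of the same shuttle, had 2025, 1858 and 1838 counts, with -0.10 and -0.20 (-0.29 to -0.11 at 100 nM). SLC25A1, which exports citrate for lipid synthesis, had 589, 510 and 530 counts, with -0.18 and -0.21 (-0.38 to -0.04 at 100 nM). Of the 4 carriers only SLC25A12 was called.

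**Figure D2:**
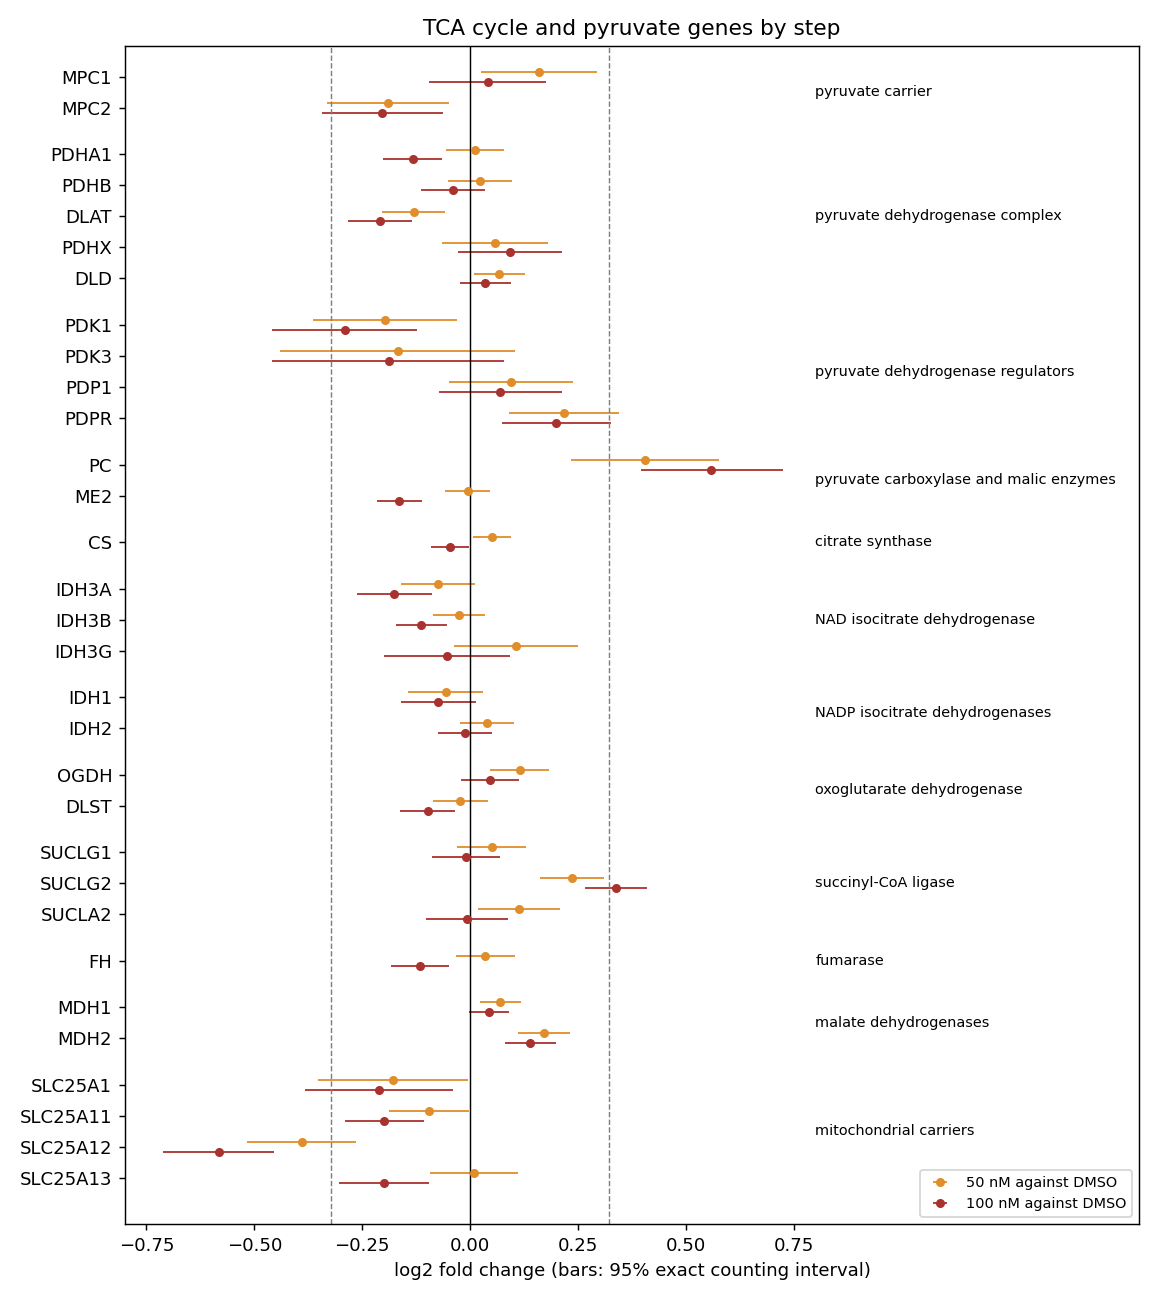
Log2 fold change of each gene at 50 nM and at 100 nM against the same DMSO library, grouped by step, with 95% exact counting intervals as bars and dashed lines at the fold threshold of 25% higher or 20% lower. PC and SUCLG2 lie beyond the right line at 100 nM and SLC25A12 beyond the left one, while the other 28 genes lie between the lines.

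The spread of fold changes in the module was set beside that of all genes (the histogram of fold changes). At 100 nM against DMSO, 28 of the 31 genes lay inside the fold threshold, against 70.2% of all genes tested and 79.3% of the 9979 genes whose mean count was 100 or more. Over the 31 genes the SD of log2 fold changes was 0.202, and over those 9979 it was 0.287. Depth is not matched in this comparison, since the median count was 2151 in the module, 999 over the 9979 genes and 637 over all genes tested. At 50 nM, 29 of the 31 genes (93.5%) lay inside the threshold, close to the 89.9% of the 9979 genes. The median log2 fold change of the 31 genes was -0.0532, that of all genes tested -0.0042 and that of the 9979 genes -0.0177. The intervals of 14 of the 31 genes lay below 0, beside 25.5% of all genes tested, and those of 4 lay above 0, beside 23.8%. Among the 9979 more deeply counted genes, 30.9% had intervals below 0 and 26.9% above 0.

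At 50 nM against DMSO the median of the 31 genes was 0.0354, with -0.0047 over all genes tested. PC was the 1 gene called higher, beside 4.42% of all genes tested, and SLC25A12 the 1 called lower, beside 3.97%. None of the 31 reached 2-fold, beside 0.932% of all genes. The intervals of 10 of the 31 genes lay above 0 at 50 nM, beside 17.9% of all genes, and those of 6 lay below 0, beside 19.2%. Among the 9979 more deeply counted genes, 20.7% had intervals above 0 and 23.2% below 0. Both doses were set against the same DMSO library, so their values are not independent.

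**Figure D3:**
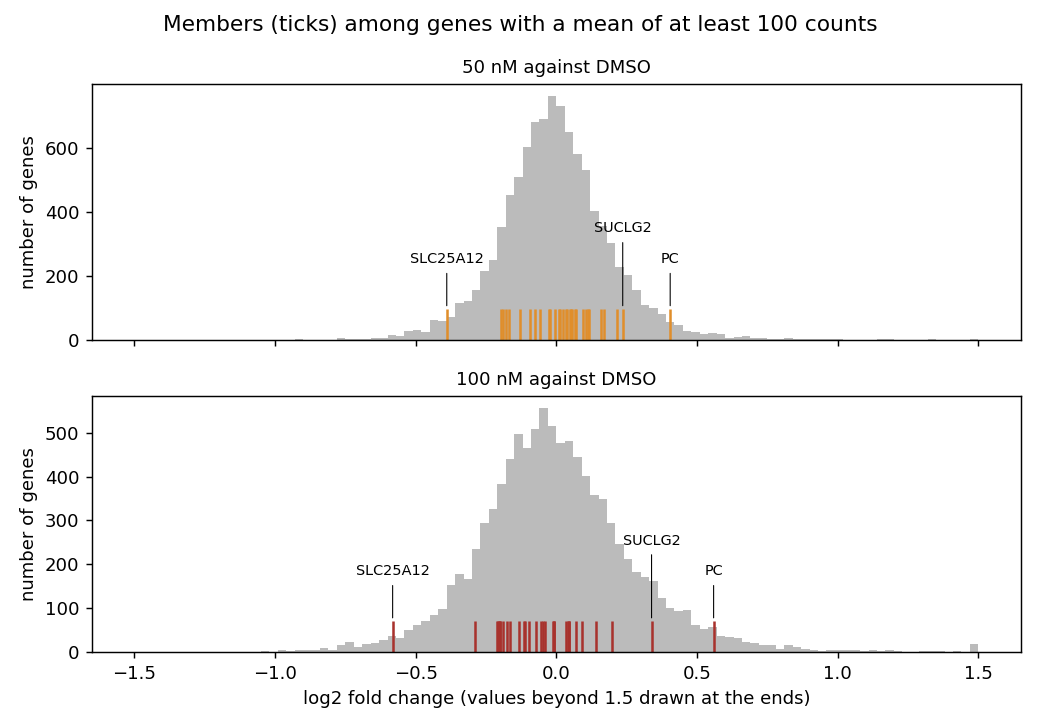
Number of genes (vertical axis) by log2 fold change (horizontal axis) among the 9979 genes whose mean count was 100 or more, at 50 nM (upper) and 100 nM (lower) against DMSO, with ticks for the 31 genes of the module. Most ticks lie in the centre of both histograms, with PC and SUCLG2 to the right and SLC25A12 to the left.

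Between the doses, 0 of the 31 genes were called at 100 nM against 50 nM, higher or lower, beside 1.9% of all genes tested called higher and 1.13% called lower, and none reached 2-fold, beside 0.497%. The median log2 fold change of the 31 genes was -0.0696, with 0.0045 over all genes tested. The intervals of 14 of the 31 genes lay below 0, beside 13.8% of all genes tested and 16.5% of those with a mean count of 100 or more. Those of 2 genes, PC and SUCLG2, lay above 0, beside 13% and 14.9%. The interval of PC only just excluded 0, with a lower end of 0.0015. FH, with -0.15 (-0.22 to -0.08), and SLC25A13, with -0.21 (-0.31 to -0.10), were among the 14. The counts of all 32 genes together made up 0.359% of the DMSO library (95% Clopper-Pearson interval 0.357 to 0.362), 0.368% of the 50 nM library (0.365 to 0.370) and 0.351% of the 100 nM library (0.348 to 0.353). The intervals cover counting error only and do not overlap, with the 50 nM library highest and the 100 nM library lowest.

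The balance of a pair of genes within each library does not depend on how libraries are scaled. For 8 pairs, chosen after the values were seen, the share of the pair's counts that came from the first gene was compared (the plot of pair shares). SUCLG2 gave 60.8% of the counts of SUCLG2 and SUCLA2 in the DMSO library (59.4 to 62.3), against 62.8% with 50 nM (61.5 to 64.2) and 66.4% with 100 nM (65.1 to 67.6). Per length, the ratio of SUCLG2 to SUCLA2 went from 1.26 with DMSO to 1.60 at 100 nM. PC gave 12.01% of the counts of PC and PDHA1 with DMSO (11.04 to 13.04), against 15.2% with 50 nM (14.1 to 16.3) and 18.1% with 100 nM (16.9 to 19.3).

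SLC25A12 gave 43.3% of the counts of the aspartate/glutamate carriers with DMSO (41.4 to 45.2), against 36.7% with 50 nM (34.8 to 38.6) and 36.9% with 100 nM (34.9 to 39.0). Here both pyrvinium libraries lay below the DMSO library and overlapped each other. PDK1 gave 45.0% of the counts of PDK1 and PDP1 with DMSO (42.4 to 47.7) and 39.0% at 100 nM (36.4 to 41.6). At 50 nM it gave 40.1% (37.5 to 42.8), which overlapped DMSO. DLAT gave 74.9% of the counts of DLAT and PDHX with DMSO (73.5 to 76.2) and 70.7% at 100 nM (69.3 to 72.1). At 50 nM it gave 72.3% (70.9 to 73.7), which overlapped DMSO. Exons of both DLAT and PDHX overlap another gene, as given above. The intervals of MPC1 with MPC2, IDH1 with IDH2 and MDH1 with MDH2 overlapped between DMSO and 100 nM. At 50 nM, IDH1 with IDH2 and MDH1 with MDH2 also overlapped DMSO, but MPC1 with MPC2 did not. MPC1 gave 49.7% of that pair's counts with DMSO (47.4 to 52.1) and 55.8% with 50 nM (53.4 to 58.2). Since the pairs were picked with the values known and several hold a called gene, the number of pairs that separate is not read as a result.

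**Figure D4:**
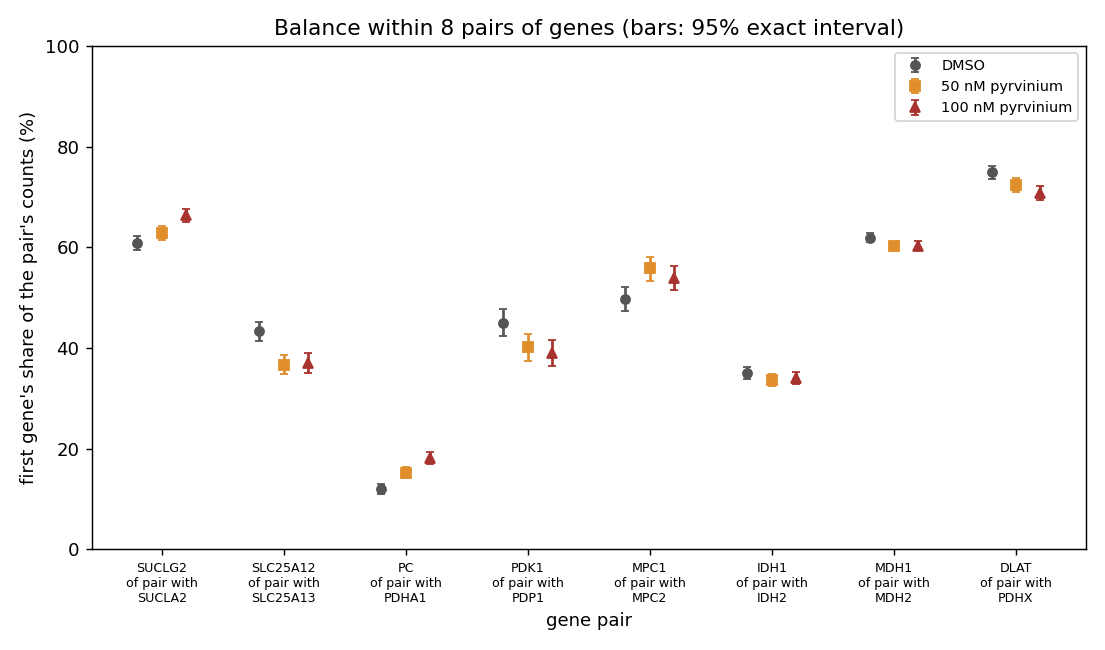
Share of a pair's counts that came from the first gene (%, vertical axis) for 8 pairs of genes in the 3 libraries, with 95% exact intervals that cover counting error only. The shares of SUCLG2 and PC were higher at 100 nM than with DMSO and those of SLC25A12, PDK1 and DLAT lower, while IDH1 and MDH1 overlapped between DMSO and 100 nM.

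Other genes of pyruvate and TCA metabolism come from a list that excludes the 32. Both lists were chosen with earlier results of these data known, so a difference between them may partly reflect that choice. Of 23 such genes 21 passed the filter, and at 100 nM 4 were called higher, beside 10.2% of all genes tested, and 3 lower, beside 8.3%, with a median log2 fold change of 0.0418. Their log2 fold changes had an SD of 0.407, against 0.202 in the module and 0.440 over all genes tested. Over the 9979 genes with a mean count of 100 or more the SD was 0.287. The median count of this list was 2221. PCK2, the mitochondrial enzyme that turns oxaloacetate into phosphoenolpyruvate, was the 1 gene past 2-fold, with 2085, 3426 and 4997 counts and a log2 fold change of 1.20 at 100 nM (1.13 to 1.28). The other calls are named here after their values were seen. GPT2, which transfers an amino group between alanine and oxoglutarate, had 0.88, GOT1, the cytosolic aspartate aminotransferase, 0.40, and DHTKD1, an E1 of the oxoglutarate dehydrogenase kind, 0.33. Lower were SLC25A10, the dicarboxylate carrier, at -0.54, LDHA, which makes lactate from pyruvate, at -0.50, and ACSS1, the mitochondrial acetyl-CoA synthetase, at -0.39.

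Of 14 genes that supply lipoate, thiamine and iron-sulfur cofactors to these enzymes, 1 was called higher and 1 lower at 100 nM, near the shares over all genes tested, with a median of 0.0145. They were IBA57, at 0.54, and GLRX5, at -0.43, both of iron-sulfur cluster assembly and named after their values were seen. Complex I takes the NADH of the cycle. Of 7 of its nuclear-encoded core subunits, 0 were called higher, beside 10.2% of all genes tested, and 0 lower, beside 8.3%. Such shares would give few or no calls among 7 genes. The median of the 7 was -0.0689, near the -0.0532 of the module. The intervals of 3 of the 7 lay below 0, beside 25.5% of all genes tested, and those of 0 above, beside 23.8%.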

How the data were processed

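RNA of 3 Molm13 cultures was sequenced, with 1 library for each of DMSO, 50 nM and 100 nM pyrvinium, and conditions were taken from the sample titles. The treatment note writes the higher dose once without its prefix. The authors prepared stranded mRNA libraries, mapped read pairs with Rsubread against hg19, and the deposited values are raw read counts per Entrez gene. The strand setting of the counting and the Rsubread version are not given in the sources used here. A further table of the authors' EBSeq comparisons, with posterior probabilities and fold changes, was not used.

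Symbols came from RefSeq by Entrez identifier for 23696 of 25702 genes. TMM sizes came from edgeR 4.0.16 in R 4.3.3. Each pair of libraries was tested by an exact binomial test, two-sided (scipy 1.17.1), for the 12879 genes that reached 10 counts in any library, with Benjamini-Hochberg adjustment. For log2 fold changes, 0.5 counts were added to both libraries. The 95% Clopper-Pearson intervals cover counting error only. Every gene of the module is named, by step. The members and lists were chosen with earlier results of these data known. Shared sequence was measured on 75-base windows of GENCODE 44 transcripts lifted to GRCh37. The procedure was tested on simulated counts that varied by counting error alone. That test cannot show how calls from 1 library per condition hold up against variation between cultures. Alternatives were other scalings (total counts, the size factors of DESeq2 1.42.0, and TMM computed on nuclear genes), filters, 5 counts added, fold thresholds, the module without 5 genes of overlapping or copied sequence, edgeR's exact test with an assumed spread, and a quasi-likelihood dose trend.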

Additional observations from a re-analysis of the deposited data

How the results depend on the processing

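The genes of the module called numbered 3 at 100 nM, 2 at 50 nM and 0 between the doses under each of the 3 other scalings, the 3 other count filters, 5 counts added, and without PDHA1, DLAT, PDHX and MPC2, whose exons overlap another gene, and PDPR, which has a near-identical copy. SUCLG2, which shares windows with a pseudogene, and CS, which shares windows with other genes, were kept in that alternative. All 372 single-gene values under the other scalings or added counts lay within their counting intervals. With a fold threshold of 1.5 or 2, 0 genes were called at 100 nM and 0 at 50 nM. When edgeR's exact test was given a coefficient of variation of 0.1 or 0.2, again 0 genes were called at either dose. Over all genes tested, 2387 were called at 100 nM, against 868 and 282 at a fold of 1.5 and 2 and 248 and 12 at a variation of 0.1 and 0.2. At 50 nM these numbers were 1080, against 332, 120, 32 and 0, and between the doses 390, against 144, 64, 16 and 4. Fitting a linear trend in dose by quasi-likelihood, which leaves 1 residual degree of freedom, called the same 3 genes, PC, SUCLG2 and SLC25A12. Over all genes tested it called 1804, or 14.0%, so 3 of the 31 is no more than that share would give. The trend used the same 3 libraries and is not an independent check. The 3 median log2 fold changes moved by less than the counting intervals of single genes, and ranged from -0.0560 to -0.0500 at 100 nM. At these depths the counting interval of a gene had a median half-width of 0.0861 on the log2 scale at 100 nM, and 0.269 for the widest, which belongs to the lowest of the 31 genes. No paired analysis was possible because each condition has 1 library, and for the same reason no replicate could be left out.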

Other observations

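A list of cytosolic citrate and acetyl-CoA metabolism, downstream of the cycle, held 5 genes of which 4 passed the filter. Their counts are of RNA and do not measure how much citrate is used. ACACA, the rate-limiting carboxylase of fatty acid synthesis, had 4319 counts with DMSO, 5022 at 50 nM and 5604 at 100 nM, and its log2 fold change at the higher dose was 0.32 (0.26 to 0.37). FASN had 0.22 and ACLY, which splits citrate into acetyl-CoA and oxaloacetate, 0.14. ACSS2, which makes acetyl-CoA from acetate and not from citrate, had 0.28. All 4 intervals lay above 0, beside 23.8% of all genes tested and 26.9% of those with a mean count of 100 or more. None of the 4, named after their values were seen, was called, and their median was 0.2479 at 100 nM and 0.1486 at 50 nM. SLC25A1, the carrier that exports citrate, was at -0.21 at 100 nM.

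Of 15 glycolysis genes, 0 were called higher at 100 nM, beside 10.2% of all genes tested, and 2 lower, beside 8.3%, with a median of -0.1363. These were PGAM1, at -0.36, and PFKM, at -0.35, both named after their values were seen. The intervals of 9 of the 15 lay below 0, beside 25.5% of all genes tested and 30.9% of those with a mean count of 100 or more, and those of 3 lay above 0, beside 23.8% and 26.9%. With 15 genes chosen as a list, this is a description and was not tested.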
